A study of Mus musculus with 6 samples.

Results

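The nuclear genes of respiratory complex I were taken as every row of the deposited gene table whose mouse Ensembl identifier maps to a symbol starting with Nduf. Symbols that contain -ps were left out, so any subunit gene with such a symbol is outside the counts and sums. The rule found 49 genes among 56923 in the table. By their known roles, 36 encode structural subunits of the enzyme and 8 encode assembly factors. Another 2 carry the name but were counted outside complex I, namely Ndufa4, a subunit of cytochrome c oxidase, and its relative Ndufa4l2. The last 3 (Ndufb4c, Ndufs6b and Ndufa11b) are copies of other Nduf genes. Of the 49, 47 passed the filter on low values, which asked for 10 or more normalized counts in 3 or more of the 6 libraries, against 16411 genes in all.

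Complex I, the NADH:ubiquinone oxidoreductase of the mitochondrial inner membrane, takes electrons from NADH, passes them along a flavin and iron-sulfur clusters to ubiquinone and pumps protons across the membrane. Its L shape has a matrix arm, made of the NADH-oxidising N module and the quinone-binding Q module, and a membrane arm whose proximal and distal parts hold the proton channels. The hydrophobic core of the membrane arm is encoded in mitochondrial DNA (the mt-Nd genes), and all other subunits are encoded in the nucleus and imported. Neurons of the locus coeruleus, the noradrenaline nucleus of the pons, fire spontaneously and depend heavily on mitochondrial respiration.

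The tissue was punched locus coeruleus from wild-type (WT) mice and from transgenic 5xFAD mice, a line that carries human transgenes with familial Alzheimer's disease mutations under mouse Thy1 regulatory sequence, which drives expression in neurons. The series belongs to a study of disturbed sleep and overactive neurons in this model. There were 3 WT libraries, numbered 62, 63 and 66, and 3 5xFAD libraries, numbered 64, 65 and 79, of bulk poly-A RNA. The labels give neither age, sex nor batch and do not say that each library came from a separate animal, so p-values measure the spread between these libraries, which may be partly technical. The names of the library columns end in a running tag, lower in WT than in 5xFAD, whose meaning is not given. An effect of that order cannot be told apart from genotype. The libraries held 15158712 to 20079349 reads assigned to genes. All 8 noradrenergic marker genes, Dbh and Th among them, were read in all 6 libraries, with a summed normalized count of 7957 to 14310 in WT and 11162 to 15743 in 5xFAD. Markers of oligodendrocytes, astrocytes, microglia, vessels and cerebellar granule cells were read in every library too. In such mixed tissue, fewer cells of a type and less RNA per cell cannot be told apart.

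Promoter sequence was looked at first, as a feature that the choice of genes did not use. NRF1 and YY1 are transcription factors known to act on nuclear genes of respiration. RefSeq promoters (GRCm38.p6, 250 bases before to 50 after the start) were to hand for 40 of the 49 genes, as 42 promoters. The NRF1 motif, 10 bases long with 1 free base in its middle and searched on both strands, was in 10 of the 42 (23.8%), from 9 genes, against 4.60% of 32851 promoters of the same length and 8.71% of the 15152 promoters of tested genes. The YY1 motif, also 10 bases long, with the letters shown in capitals further on, was in 5 of the 42 (11.9%), against 0.852% of all promoters and 1.71% of those of tested genes. The motif CCGGAAGT of GABPA was in 1 of the 42 (2.38%), against 3.89% of all promoters and 6.97% of those of tested genes. The motif TCAAGGTCA of the estrogen-related receptors was in 0, against 0.423% of all and 0.284% of those of tested genes. Ndufs6 held both NRF1 and YY1 matches, at separate positions.

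The stretches before the start that hold the NRF1 matches of Ndufb4, Ndufs6 and Ndufa11 are shown because these genes are among the 8 whose WT and 5xFAD libraries did not overlap (see their values further on). They are written 5′ to 3′ on the gene's strand, with the matches in capitals. Ndufb4 lies on the minus strand (chr16:37654369-37654579) and had 3 matches, Ndufs6 on the minus strand (chr13:73328483-73328518) and Ndufa11 on the plus strand (chr17:56717682-56717731). The match of Ndufa11 reads the same on both strands. NRF1 matches also lay in Ndufa5, Ndufa6, Ndufa8, Ndufaf4, Ndufaf5 and Ndufs5, whose WT and 5xFAD libraries overlapped. Whether a match goes with the difference between the genotypes was not tested.
Ndufb4: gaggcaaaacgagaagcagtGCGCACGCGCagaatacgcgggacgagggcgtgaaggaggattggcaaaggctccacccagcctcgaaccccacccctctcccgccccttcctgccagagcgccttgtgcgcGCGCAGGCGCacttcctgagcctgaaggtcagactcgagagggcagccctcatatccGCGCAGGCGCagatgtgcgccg
Ndufs6: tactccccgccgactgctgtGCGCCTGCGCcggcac
Ndufa11: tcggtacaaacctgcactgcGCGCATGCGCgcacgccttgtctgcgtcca

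The YY1 matches all lay just after the start, on the gene's own strand, beginning 10 to 35 bases downstream. The 30 bases around each are shown to let them be compared, with the match in capitals. They lie at chr6:126849096-126849125 for Ndufa9 (minus), chr11:120098934-120098963 for Ndufaf8 (plus), chr13:114388045-114388074 for Ndufs4 (minus), chr13:73328433-73328462 for Ndufs6 (minus) and chr10:80249463-80249492 for Ndufs7 (plus). A match is a description of the letters and not evidence of a bound factor.
Ndufa9: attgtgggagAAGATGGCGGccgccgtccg
Ndufaf8: ggcagggcccAAGATGGCGGcgccctcgag
Ndufs4: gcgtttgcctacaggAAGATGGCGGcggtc
Ndufs6: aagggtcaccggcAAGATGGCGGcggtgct
Ndufs7: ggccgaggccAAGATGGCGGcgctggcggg

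Between the genotypes, the nuclear complex I genes had slightly lower values in 5xFAD tissue almost throughout, and no single gene passed the test. Of the 47 tested genes 44 had lower and 3 (Ndufa4l2, Ndufa7 and Ndufaf3) had higher values, where 49.8% of all tested genes had lower and 50.2% higher values. Fold changes are 5xFAD relative to WT, as differences of log2(normalized count + 1). Their median was −0.08 over the 47 genes and 0.00053 over all tested genes. In the limma test with Benjamini-Hochberg adjustment over all tested genes, 0 of the 47 passed 0.05 (every adjusted p 0.9995), and 1 of the 16411 genes did (0.00609%). At an unadjusted p under 0.05 there were 4 members, all lower, where 2.32% of all tested genes reached it and 1.05% did so with lower values. The edgeR test on the recovered reads called 0 members as well (0.00609% of all tested genes), with 4 at an unadjusted p under 0.05 (2.33% of all). DESeq2 called 0 members (0.0244% of all), with 1 at an unadjusted p under 0.05 (0.926% of all). In the authors' deposited table, the adjusted p was under 0.05 for 0 members (0.0106% of all genes with a p) and the unadjusted p for 1, Ndufb4 (0.731% of all). These counts describe genes that share libraries and vary together, so they are no test of the list.

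**Figure D1:**
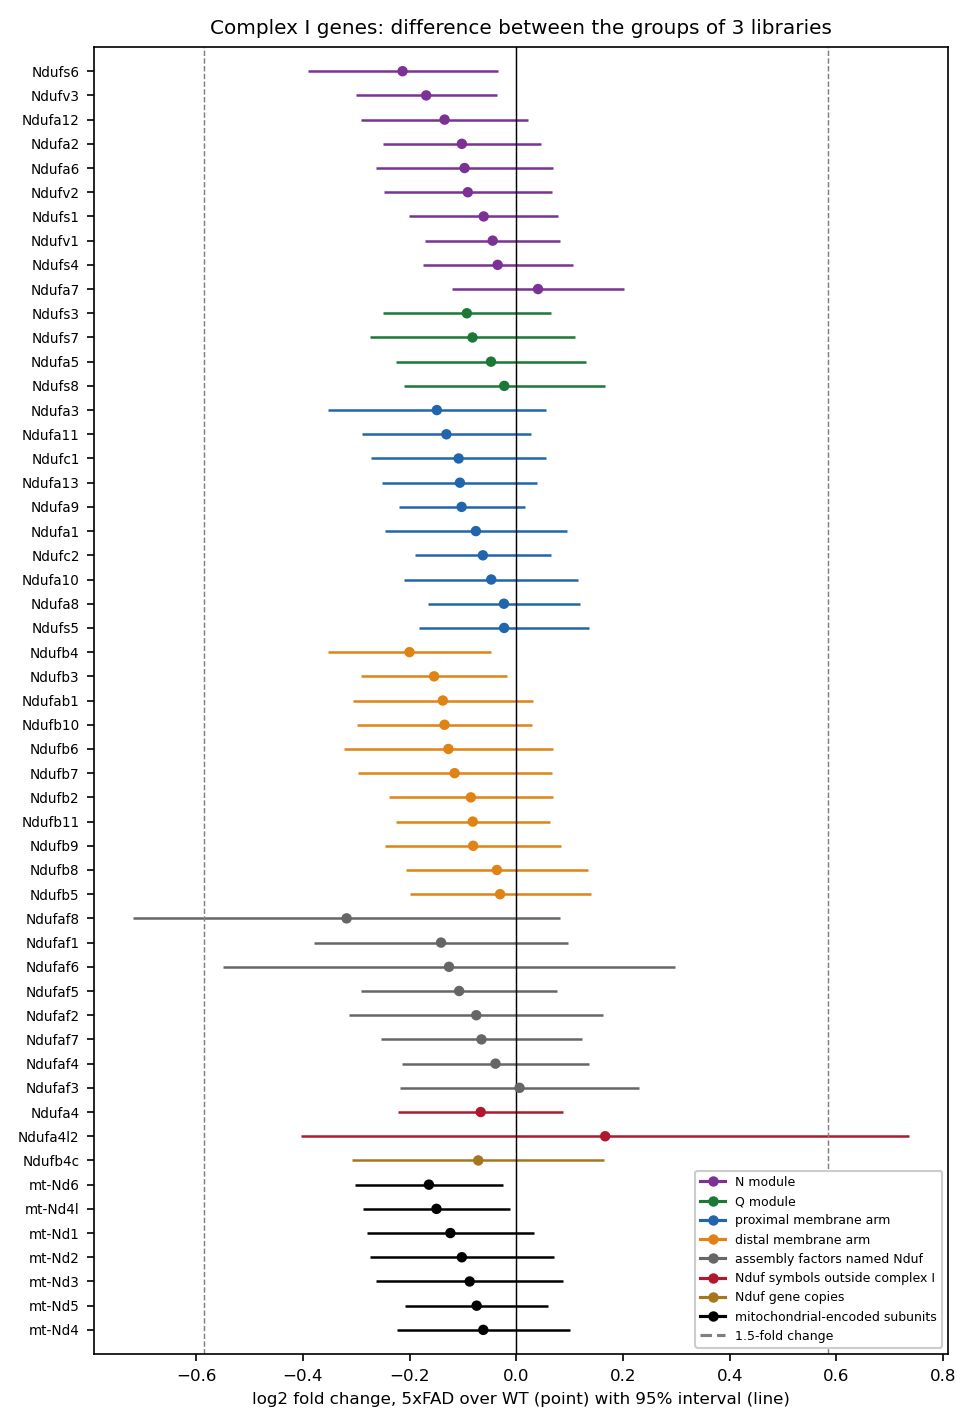
Log2 fold change of the Nduf genes reported singly and of each mitochondrial-encoded subunit (x axis, 5xFAD over WT, point) with its 95% interval from limma (line), by role; dashed lines mark a 1.5-fold change. Points of the Nduf genes lie left of 0 except those of Ndufa7, Ndufaf3 and Ndufa4l2, and the intervals of 4 of them leave out 0.

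The 6 libraries did not separate by genotype over these genes. Each gene's log2 value was set against its own mean over the 6 libraries. The median of these deviations over the 47 genes was 0.06 in WT 62, −0.05 in WT 63 and 0.11 in WT 66, and −0.0014 in 5xFAD 64, −0.10 in 5xFAD 65 and −0.01 in 5xFAD 79. WT 66 and WT 62 thus stood above the rest, whereas WT 63 lay below 5xFAD 64 and 5xFAD 79. WT 66 was the highest library for 29 of the 47 genes (18.6% of all tested genes had their highest value there), and 5xFAD 65 the lowest for 26 (21.3% of all tested genes). Compared with WT 66, 45 of the 47 genes were lower in 5xFAD 65 and in 5xFAD 79 and 43 were lower in 5xFAD 64. Compared with WT 63, 31 were lower in 5xFAD 65, 16 in 5xFAD 64 and 17 in 5xFAD 79. Without WT 66 the count of lower genes was 38, and without 5xFAD 65 it was 36, with medians of −0.05 and −0.04. An unadjusted p under 0.05 was then reached by 1 gene beside 291 of all tested genes without WT 66 and by 2 beside 557 without 5xFAD 65. It was reached by 1 beside 299 without WT 62 and by 2 beside 561 without 5xFAD 79. Without WT 63 it was 46 and the median −0.11, with 11 genes at an unadjusted p under 0.05 beside 990 of all tested genes. With both WT 63 and 5xFAD 65 left out, an alternative chosen after seeing the data, 45 were lower, the median was −0.09, and 9 reached an unadjusted p under 0.05 beside 1100 of all tested genes.

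**Figure D2:**
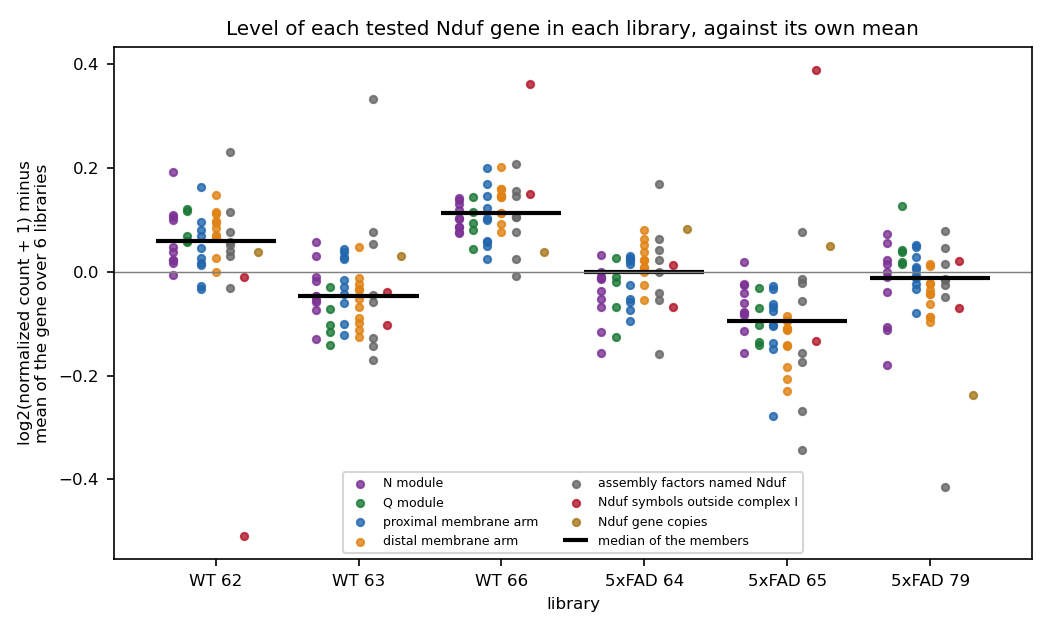
Deviation of each tested Nduf gene from its own mean over the 6 libraries (y axis, log2 units) in each library (x axis), coloured by role; black bars are medians over the 47 genes. The bars are highest in WT 66 (0.11) and WT 62 (0.06) and lowest in 5xFAD 65 (−0.10) and WT 63 (−0.05).

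**Figure D3:**
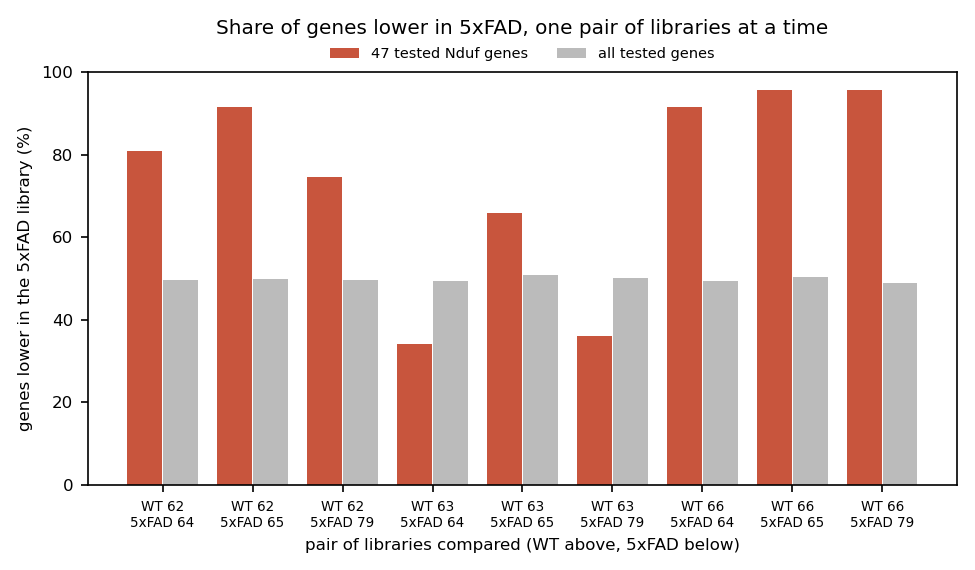
Percent of genes lower in the 5xFAD library for each of the 9 pairs of a WT and a 5xFAD library, for the 47 tested Nduf genes (red) and all 16411 tested genes (grey). The share of Nduf genes ran from 34.0% (WT 63 with 5xFAD 64) to 95.7% (WT 66 with 5xFAD 65 or 5xFAD 79), and that of all genes from 48.9% to 50.8%.

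Other measures moved with these libraries, and their part in the differences was not tested. The summed normalized count of 8 pan-neuronal marker genes was 163005, 140403 and 156400 in the WT libraries against 143656, 129571 and 152387 in the 5xFAD libraries, with its lowest values in 5xFAD 65 and WT 63. The abundant Snap25, Nefl and Nefm made up most of that sum. Syt1 and Rbfox3, of the same list, went the other way and were highest in those libraries, Syt1 at 9884 in WT 63 and 10034 in 5xFAD 65 and Rbfox3 at 1443 and 1363. The 8 oligodendrocyte markers were likewise lowest in WT 63 (210499) and 5xFAD 65 (203425), and lay between 255090 and 317168 in the other libraries. The 8 cerebellar granule markers summed to 8131, 14711 and 8513 in the WT libraries against 13676, 15925 and 10416 in the 5xFAD libraries, so they were highest in those same libraries, and the 8 noradrenergic markers were highest there too (14310 in WT 63 and 15743 in 5xFAD 65). Of 5 choroid plexus markers Kcnj13 was at 0 in at least 1 library, and their sum was 1313 in WT 66 against 97.5 to 143 in the other libraries. Transcript length also moved with the difference. Of 756 tested coding genes with a transcript under 1000 bases, 61.9% had lower values in 5xFAD (median log2 fold change −0.03), against 43.8% of 4827 genes with 4000 bases or more (median 0.01). The 24 Nduf genes under 1000 bases had a median of −0.08, with 22 lower, and the 17 genes of 1000 to 2000 bases had one of −0.09, with 16 lower, where 53.1% of all genes of that length were lower.

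In the N module, where NADH is oxidised, the smallest p-values belonged to accessory subunits. Of its 10 genes 9 had lower values, with a median log2 fold change of −0.09. Ndufv3 (ENSMUSG00000024038.18), a flavoprotein-associated accessory subunit, read 795.8, 768.2 and 784.1 normalized counts in the WT libraries against 703.8, 698.8 and 685.8 in the 5xFAD libraries. All 3 5xFAD libraries lay below all 3 WT libraries, and the spread within each group was small (783 ± 13.9 and 696 ± 9.25, SD, n = 3 each). Its log2 fold change was −0.17 (SE 0.06, 95% interval −0.30 to −0.04, limma adjusted p = 0.9995). Ndufs6 (ENSMUSG00000021606.9), a zinc-binding subunit that joins late in assembly, read 647.2, 561.7 and 622.8 in the WT libraries against 522.3, 556.4 and 499.9 in the 5xFAD libraries. The groups did not overlap, although WT 63 and 5xFAD 65 were close. The log2 fold change was −0.21 (SE 0.08, 95% interval −0.39 to −0.04, limma adjusted p = 0.9995). Ndufa2, an accessory subunit with a thioredoxin-like fold, read 529.3, 526.5 and 547.2 in the WT libraries against 502.7, 488.8 and 501.9 in the 5xFAD libraries, also without overlap, at a log2 fold change of −0.10 (SE 0.07). Ndufa12 read 1744, 1570 and 1789 in the WT libraries against 1454, 1555 and 1639 in the 5xFAD libraries, with 5xFAD 79 above WT 63 and a log2 fold change of −0.13 (SE 0.07).

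Among the catalytic subunits of the N module, Ndufv1, which binds the flavin and NADH, read 2609, 2483 and 2771 in the WT libraries against 2554, 2505 and 2559 in the 5xFAD libraries, with WT 63 the lowest of the 6 and a difference of −0.04 on the log2 scale (SE 0.06, 95% interval −0.17 to 0.08). Ndufv2, an iron-sulfur partner of Ndufv1, read 2175, 2114 and 2344 in the WT libraries against 2064, 1921 and 2250 in the 5xFAD libraries, with a log2 fold change of −0.09 (SE 0.07). Ndufs1, the large iron-sulfur subunit, read 3666, 3406 and 3807 in the WT libraries against 3545, 3278 and 3603 in the 5xFAD libraries, with a log2 fold change of −0.06 (SE 0.06). In all 3 core genes the groups overlapped. Ndufs4, an accessory subunit whose loss causes Leigh syndrome, was at −0.03 (SE 0.06) and Ndufa6 at −0.10 (SE 0.07). Ndufa7 was the member of the module with higher values, with 671.4, 616.8 and 710.6 in the WT libraries against 669.1, 683.2 and 700.8 in the 5xFAD libraries (log2 fold change 0.04, SE 0.07), a sign that turned without WT 63.

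The Q module, where ubiquinone is reduced, showed the smallest differences of the structural groups, with 5 of 5 genes lower and a median log2 fold change of −0.05. The difference between the groups of subunits was not tested. Ndufs3, a core subunit of the matrix arm, read 1299, 1139 and 1277 in the WT libraries against 1097, 1172 and 1213 in the 5xFAD libraries, at −0.09 (SE 0.07). The iron-sulfur subunits Ndufs7 and Ndufs8 had log2 fold changes of −0.08 (SE 0.09) and −0.02 (SE 0.08), and the accessory subunit Ndufa5 one of −0.05 (SE 0.08). Ndufs8 had its highest value, 1068, in 5xFAD 79 and its lowest, 887.0, in 5xFAD 65. All 5 genes overlapped between the groups. Over the 7 nuclear core subunits of the matrix arm, 7 had lower values, the median was −0.06, and 0 had groups without overlap.

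The proximal membrane arm had 10 of 10 genes lower and a median log2 fold change of −0.09. Ndufa9 (ENSMUSG00000000399.11), a subunit at the joint of the arms, read 2136, 2167 and 2262 in the WT libraries against 1976, 2062 and 2077 in the 5xFAD libraries. The groups did not overlap, and the log2 fold change was −0.10 (SE 0.05, 95% interval −0.22 to 0.02). Ndufa11, an accessory subunit of the membrane arm, read 994.5, 974.6 and 1132 in the WT libraries against 946.4, 917.2 and 962.8 in the 5xFAD libraries, without overlap, at −0.13 (SE 0.07), and at −0.06 without WT 66. Ndufa3 read 883.1, 883.4 and 974.0 in the WT libraries against 882.9, 714.4 and 883.8 in the 5xFAD libraries, so that 5xFAD 65 alone was well below the rest (log2 fold change −0.15, SE 0.09, and −0.05 without that library). Ndufa13, also known as GRIM-19, was at −0.11 (SE 0.06) and Ndufc1 at −0.11 (SE 0.07). The other members ran from −0.08 for Ndufa1 through −0.06 for Ndufc2 and −0.05 for Ndufa10 to −0.02 for Ndufa8 and Ndufs5. The signs of Ndufa10, Ndufa8 and Ndufs5 turned without 5xFAD 65.

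The distal membrane arm, built mostly of Ndufb subunits around the distal proton channels, had 11 of 11 genes lower and the median furthest from 0 among the structural groups, −0.12. Ndufb4 (ENSMUSG00000022820.5), a small membrane subunit, had the smallest unadjusted p of all members (0.0158). It read 715.0, 691.6 and 747.3 in the WT libraries against 644.8, 589.6 and 640.8 in the 5xFAD libraries, or 718 ± 28.0 against 625 ± 30.8 (SD, n = 3 each), without overlap. Its log2 fold change was −0.20 (SE 0.07, 95% interval −0.35 to −0.05, limma adjusted p = 0.9995). Ndufb3 read 1515, 1405 and 1565 in the WT libraries against 1391, 1313 and 1324 in the 5xFAD libraries, without overlap and with WT 63 and 5xFAD 64 close together, at −0.15 (SE 0.06, 95% interval −0.29 to −0.02). Ndufb10 read 2411, 2046 and 2403 in the WT libraries against 2175, 2012 and 2048 in the 5xFAD libraries, at −0.13 (SE 0.07), with WT 63 among the 5xFAD values. Ndufab1, the mitochondrial acyl carrier protein, which also serves fatty acid synthesis, read 1211, 1100 and 1210 in the WT libraries against 1135, 968.2 and 1102 in the 5xFAD libraries, at −0.14 (SE 0.08). The log2 fold changes of Ndufb6 (−0.13), Ndufb7 (−0.12), Ndufb2 (−0.09), Ndufb9 and Ndufb11 (−0.08 each), Ndufb8 (−0.04) and Ndufb5 (−0.03) were within about 1.5 times their SE or less. Ndufb8 and Ndufb5 turned sign without WT 66 or without 5xFAD 65.

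The gene copies bear on how far these counts can be trusted. Over its whole 390 bases, the transcript of Ndufb4c in GENCODE M21 (GRCm38) was identical to a stretch of the 971-base Ndufb4 transcript, so reads from that stretch cannot be told apart and their division between the genes is uncertain. Ndufb4c read 286.9, 285.6 and 286.9 in the WT libraries against 295.8, 289.1 and 236.9 in the 5xFAD libraries (log2 fold change −0.07, SE 0.11). The sum of both genes was 1002, 977 and 1034 in the WT libraries against 941, 879 and 878 in the 5xFAD libraries, and these sums did not overlap either. Ndufs6b, 96.6% identical to Ndufs6 over 348 bases, was at 0 in all libraries but 5xFAD 65, and Ndufa11b, 94.8% identical to Ndufa11 over 424 bases, was at 0 in all but WT 66, each with 1.04 or 1.02 normalized counts there. These were the 2 members under the filter.

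The assembly factors, which build the enzyme without staying in it, had 7 of 8 genes lower and a median log2 fold change of −0.09. Ndufaf8 (ENSMUSG00000078572.4), a small factor that partners with Ndufaf5, had the largest difference of all members but also few reads. It read 77.1, 94.6 and 80.7 in the WT libraries against 72.8, 73.8 and 56.0 in the 5xFAD libraries, without overlap, at −0.32 (SE 0.18, 95% interval −0.72 to 0.08). Without 5xFAD 79 its log2 fold change was −0.19, nearer 0 than that of Ndufb4 in the same setting (−0.22). Ndufaf1, an early membrane-arm factor, had a log2 fold change of −0.14 (SE 0.11), with 574.8, 474.8 and 498.2 in the WT libraries against 503.8, 406.6 and 494.9 in the 5xFAD libraries. Ndufaf5, which modifies Ndufs7, was at −0.11 (SE 0.08). Ndufaf7, a methyltransferase that acts early in assembly, was at −0.07 (SE 0.08), Ndufaf2 at −0.07 (SE 0.11), Ndufaf4 at −0.04 (SE 0.08), Ndufaf6 at −0.13 (SE 0.19) and Ndufaf3 at 0.01 (SE 0.10), with overlap in all of them. The sign of Ndufaf3 turned under quantile normalization, to −0.0143.

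Both Nduf genes counted outside complex I lay within the spread. Ndufa4, a subunit of cytochrome c oxidase, read 2249, 2205 and 2515 in the WT libraries against 2287, 2066 and 2297 in the 5xFAD libraries, at a log2 fold change of −0.07 (SE 0.07). Ndufa4l2, its hypoxia-inducible relative, read 38.1, 50.8 and 70.4 in the WT libraries against 52.0, 71.8 and 52.0 in the 5xFAD libraries, at 0.17 (SE 0.25), which turned to −0.0460 without WT 62.

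In total, 8 of the 47 genes had groups without overlap (Ndufb4, Ndufv3, Ndufs6, Ndufb3, Ndufa9, Ndufa11, Ndufaf8 and Ndufa2), all lower in 5xFAD, against 7.42% of all tested genes in either direction and 3.7% lower. Leaving out 1 library moved the log2 fold change by over 1.5 times for 40 of the 47 genes, and for 2 of these 8 (Ndufa11 and Ndufaf8). The 8 were picked by the same values, and a lack of overlap itself favours fold changes that move less. The contrast is therefore no separate sign of stability. For 11 of the 47, not even 1 5xFAD library lay below all WT libraries. The differences were closely bounded. The 95% interval left out a 1.5-fold change for 45 of the 47 genes (71.4% of all tested genes); the other 2 were Ndufaf8 and Ndufa4l2. Among the 5954 tested genes with a mean normalized count of 388 to 2337, which spans the middle of the Nduf genes, the share was 97.0%, close to that of the Nduf genes. Their median SD within groups was 0.09 on the log2 scale, against 0.14 over all tested genes and 0.09 over genes in that range.

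Levels of different members were compared per kilobase of transcript, with lengths of the principal transcript in GENCODE M21, which may differ from the isoforms in this tissue. Ndufb8 and Ndufa4 were highest at a mean of 3722 and 3721 normalized counts per kilobase, and Ndufb10 (2981) and Ndufc2 (2126) were among the next. The ranges of Ndufb8 and Ndufa4 over the libraries overlapped. The 36 structural subunits had a median of 1307 and ran from 243 for Ndufb2, whose principal transcript is 4371 bases long, to 3722. Where transcripts of a gene ranked equally, the longest was taken. Before division by length Ndufb2 had a mean of 1064 normalized counts, and the median of the 36 was also 1064. Its low place thus rests on that length. The 8 assembly factors had a median of 262 and ran from 59.2 for Ndufaf6 to 678 for Ndufaf2. Genes of one enzyme thus differed in transcript level far more than any of them differed between the genotypes.

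**Figure D4:**
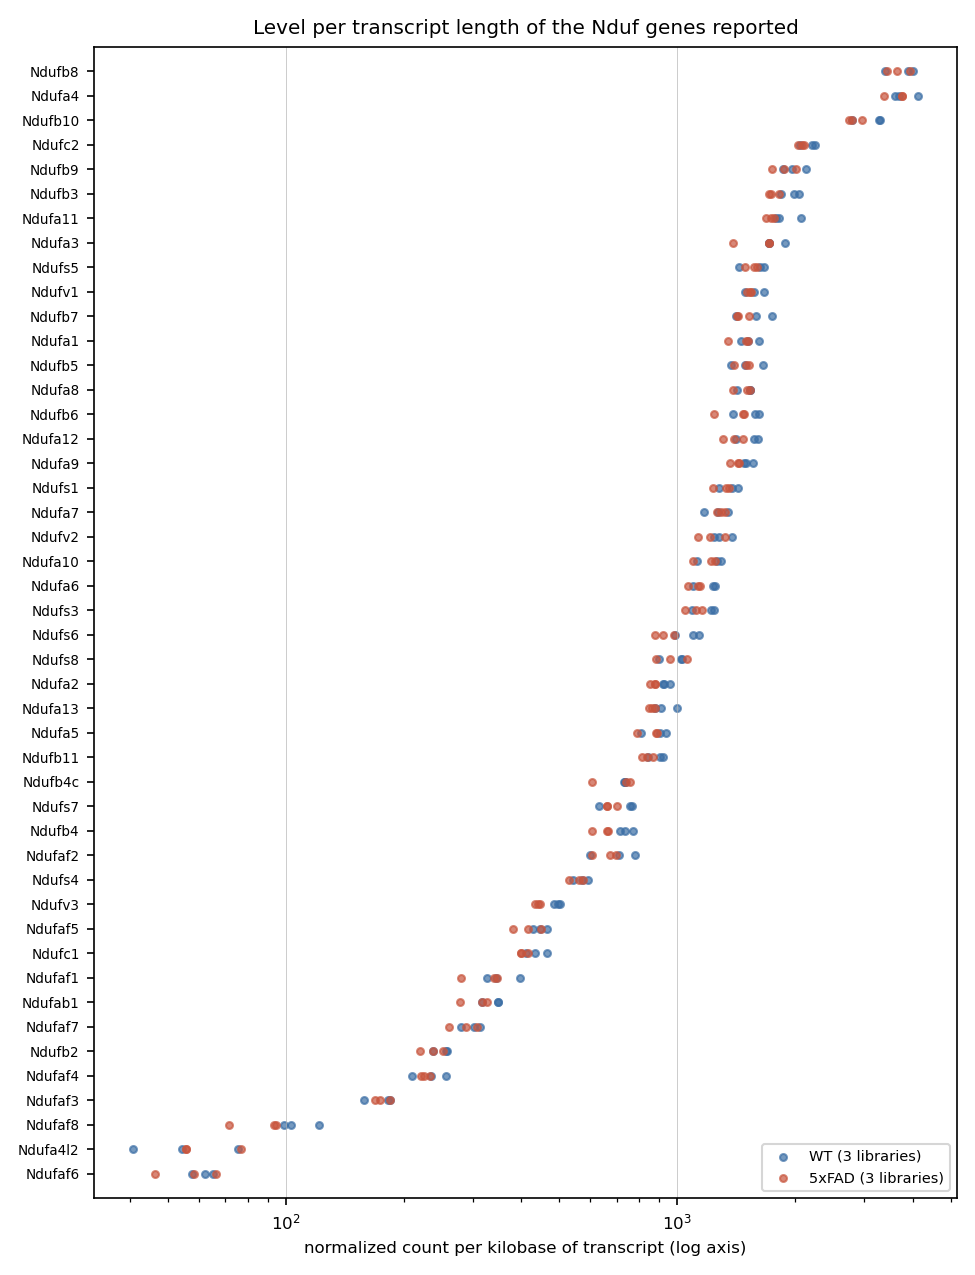
Normalized count per kilobase of transcript (x axis, log scale) of the Nduf genes reported singly in each WT (blue) and 5xFAD (red) library, ordered by the mean. Levels run from 59.2 (Ndufaf6) to 3722 (Ndufb8), and the 3 libraries of each genotype lie close together beside that range.

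The summed nuclear subunits moved in the same direction as the subunits encoded in mitochondrial DNA. The 36 structural genes summed to 50483, 46589 and 52051 normalized counts in the WT libraries against 47861, 44984 and 48102 in the 5xFAD libraries, a mean 5.48% lower in 5xFAD with WT 63 below 5xFAD 64 and 5xFAD 79. The 7 mt-Nd genes summed to 601787, 512907 and 571479 in the WT libraries against 526673, 519323 and 531315 in the 5xFAD libraries, a mean 6.46% lower, with WT 63 the lowest library of all. The ratio of the mitochondrial to the nuclear sum averaged 11.3 ± 0.535 over the WT and 11.2 ± 0.301 over the 5xFAD libraries (SD, n = 3 each), highest in WT 62 (11.9) and 5xFAD 65 (11.5). Transcripts of all mitochondrial genes made up 7.54% to 8.41% of reads in WT and 7.58% to 7.68% in 5xFAD.

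**Figure D5:**
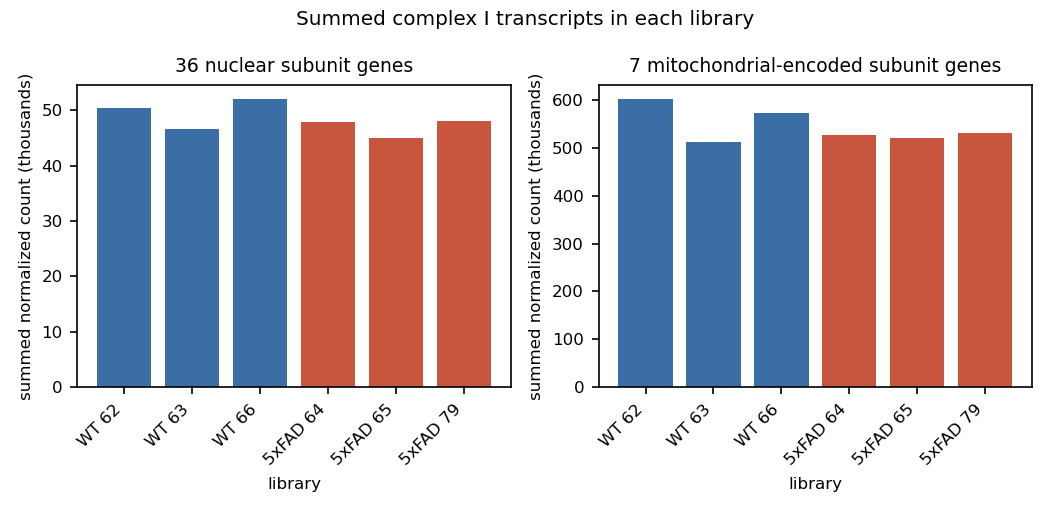
Summed normalized count (y axis, in units of 1000) of the 36 nuclear structural subunit genes (left) and of the 7 mitochondrial-encoded subunit genes (right) in each WT (blue) and 5xFAD (red) library. In both panels WT 62 and WT 66 are the highest bars and WT 63 lies among the 5xFAD libraries or below them.

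All 7 mitochondrial-encoded subunits had lower values in 5xFAD (49.8% of all tested genes), with a median log2 fold change of −0.10. In the limma test 0 passed (0.00609% of all tested genes), and 2 had an unadjusted p under 0.05 (2.32% of all). The groups did not overlap for 2, mt-Nd6 and mt-Nd4l, where 3.7% of all tested genes were lower without overlap. mt-Nd6, the subunit encoded on the light strand, read 19990, 17939 and 18403 in the WT libraries against 16500, 17656 and 16119 in the 5xFAD libraries, without overlap, at −0.16 (SE 0.06). mt-Nd4l read 12696, 12318 and 12097 in the WT libraries against 11907, 11243 and 10356 in the 5xFAD libraries, without overlap, at −0.15 (SE 0.06). The other 5 overlapped, with mt-Nd1 at −0.12 (SE 0.07), mt-Nd2 at −0.10 (SE 0.08), mt-Nd3 at −0.09 (SE 0.08), mt-Nd5 at −0.07 (SE 0.06) and mt-Nd4 at −0.06 (SE 0.07), whose sign turned under quantile normalization (0.0330). These genes have nuclear copies and overlap their neighbours or the opposite strand, which makes their counts uncertain.

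The other genes of the pathway were split in direction. Of 13 assembly factors not named Nduf, 12 were tested, with 6 higher, 6 lower and a median log2 fold change of −0.01. Nubpl, which inserts iron-sulfur clusters into complex I, had few reads, with 53.9, 54.2 and 60.2 in the WT libraries against 77.4, 79.0 and 61.0 in the 5xFAD libraries. It was higher without overlap at 0.36 (SE 0.18), although WT 66 and 5xFAD 79 were close. Acad9 was at −0.08 (SE 0.07) and Foxred1, also higher without overlap, at 0.07 (SE 0.07). Of 13 regulators of nuclear and mitochondrial respiratory genes, 8 had higher and 5 lower values, with a median of 0.07. Polrmt, the mitochondrial RNA polymerase, read 307.4, 268.4 and 306.3 in the WT libraries against 357.1, 344.2 and 336.9 in the 5xFAD libraries, higher without overlap at 0.24 (SE 0.09). Gabpb1, a subunit of the factor that binds the GABPA motif, was also higher without overlap, at 0.18 (SE 0.08). The estrogen-related receptors Esrrb and Esrrg were at −0.24 (SE 0.11) and −0.09 (SE 0.17). Of these 25 tested genes 0 passed in the limma test (0.00609% of all tested genes). Only 1, Polrmt, had an unadjusted p under 0.05 (2.32% of all). In each list 2 genes had groups without overlap, all higher in 5xFAD, against 7.42% of all tested genes in either direction.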

How the data were processed

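Bulk poly-A RNA sequencing of 3 WT and 3 5xFAD libraries was grouped by the sample titles. Per the submitters' processing notes, STAR, RSEM and DESeq2 were used with the build mm39; of the annotation release and the counting strand nothing is said there, which leaves antisense and overlapping genes uncertain. The deposited table is named TPM, but its library columns hold a signal, namely read counts per gene scaled by the authors with 1 size factor for every library. All values were whole multiples of their library's own step (tolerance 0.001), from which the reads were recovered. The deposited table also holds the authors' log2 fold change, test score and p-value. Symbols came from a reference of gene names, which matched 52073 of 56923 identifiers.

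The test ran on log2(normalized count + 1) in limma 3.58.1 (R 4.3.3), variance trend and robust moderation, after the filter stated above. The script was tested on simulated data with independent genes and changes of 1.5-fold or more. That run cannot show how well smaller differences are found. Libraries of 1 group differed by a chi-square per degree of freedom of 3.77 to 11.7, above counting noise. Precision is given as the SE and 95% interval of each gene. Alternatives were pseudocounts of 0.5 and 5, no filter or one at 50, TMM and quantile scaling, no variance trend or robust moderation, edgeR 4.0.16 and DESeq2 1.42.0 on recovered reads, and leaving out libraries. Named were the 10 members with the smallest p, the 6 with the highest mean, the core subunits, members under the filter and the other members by role, and of the related lists the mt-Nd genes and up to 4 genes each. The values of 1 member enter the counts and sums but are not reported here singly. The members and lists were chosen with earlier results of these data known. Lengths and copies came from GENCODE M21 (GRCm38), motifs from RefSeq promoters, and alignments from Biopython 1.88.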

Additional observations from a re-analysis of the deposited data

How the results depend on the processing

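The count of Nduf genes called was 0 under every alternative run, and the smallest adjusted p of a member was 0.397. The median log2 fold change kept its sign under all of them, from −0.113 to −0.044 when each library was left out in turn. Leaving out each library gave 36 to 46 lower and 1 to 11 higher members, 1 to 11 members at an unadjusted p under 0.05 and 0 to 2 genes called over the whole table (2 without 5xFAD 65, 1 without WT 66 and 0 without any other library). With DESeq2 on recovered reads 1 member reached an unadjusted p under 0.05 and 4 genes were called in all. Without trend and robust moderation 0 genes were called in all. With both WT 63 and 5xFAD 65 left out, 9 members reached an unadjusted p under 0.05, 2 had higher values, and 9 genes were called in all. Of 752 comparisons of a member's sign with an alternative, 25 turned, in 14 members. By setting, these were Ndufaf3 under quantile normalization (−0.0143), and Ndufa7 (−0.0124), Ndufaf6 (0.0208) and Ndufaf3 (−0.0554) with both libraries left out. Leaving out each library in turn, values ran from −0.109 to 0.00975 for Ndufa10, −0.0460 to 0.389 for Ndufa4l2, −0.110 to 0.00836 for Ndufa5, −0.0135 to 0.0885 for Ndufa7, −0.0590 to 0.0221 for Ndufa8, −0.179 to 0.00985 for Ndufaf2, −0.0640 to 0.0459 for Ndufaf3, −0.112 to 0.0294 for Ndufaf4, −0.242 to 0.0144 for Ndufaf6, −0.130 to 0.0297 for Ndufb4c, −0.0944 to 0.0415 for Ndufb5, −0.108 to 0.0116 for Ndufb8, −0.0891 to 0.0198 for Ndufs5, −0.0913 to 0.0423 for Ndufs8 and −0.250 to 0.0339 for Esrrg. mt-Nd4 turned under quantile normalization (0.0330). Among members that kept their sign, values moved by over 1.5 times included Ndufab1 (−0.07 without 5xFAD 65), Ndufa12 (−0.09 without 5xFAD 64) and Ndufb10 (−0.21 without WT 63); mt-Nd4l was at −0.10 without 5xFAD 79. The cause of these turns was not tested. No paired analysis was possible because the library numbers are not shared between the groups. With 3 libraries a group, the 95% interval of the difference held 0 for all but 4 members.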
